A study of Mus musculus with 6 samples.

Results

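The metallothionein genes Mt1, Mt2 and Mt3, 3 of 32564 genes measured, were taken by name, and the estimated counts and TPM of their 8 annotated transcripts were summed per gene. Metallothioneins are small, cysteine-rich proteins that bind zinc, copper and other metals through their thiol groups and scavenge reactive oxygen. Mt1 and Mt2 are found in most tissues, are induced together by zinc, glucocorticoids and inflammatory signals, and in brain are known chiefly from astrocytes and ependymal cells. Mt3 is the brain-enriched member, first described as an inhibitor of neuronal growth, and responds little to metals. In all 3 genes the level was lower after the miR-204 antagomir than after vehicle, with ratios of 0.730, 0.758 and 0.721 for Mt1, Mt2 and Mt3, but none passed the test over all genes.

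RNA sequencing had been done on cells sorted as quiescent neural stem cells from the subependymal zone, the stem cell niche lining the lateral ventricles, of gfap:GFP mice aged 3 months (strain given as C56BL/6J). In these mice green fluorescent protein is driven by the promoter of Gfap, which astrocytes also use. Sorting followed the intraventricular injection by 3 days. The 3 antagomir libraries came after an oligonucleotide that blocks miR-204, and the 3 vehicle libraries after artificial cerebrospinal fluid (aCSF). Every library comes from gfap:GFP mice, and no control oligonucleotide is named, so an effect of the injected oligonucleotide and one of blocking miR-204 cannot be told apart. Nothing in the labels says whether replicates are separate animals or pools, so p-values here reflect variation among libraries that could be purely technical.

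Each library held 14866453 to 19694409 estimated counts. All of 12 marker genes of quiescent stem cells were detected. This does not establish the label, since astrocytes also use such genes, Gfap and Hopx among them. The summed level of the 12 markers was 2938 to 3970 CPM (counts scaled to library size with edgeR's TMM factors) in antagomir and 3809 to 4035 CPM in vehicle libraries. Markers of other cells were present too. The 12 astrocyte markers summed to 7892 to 11290 CPM in antagomir and 10700 to 11600 CPM in vehicle libraries. The 10 oligodendrocyte markers summed to 15470 to 22030 CPM in antagomir and 9701 to 20430 CPM in vehicle libraries, and the 10 ependymal markers to 1465 to 2517 CPM in antagomir and 2093 to 2689 CPM in vehicle libraries. Vehicle replicate 1 stood apart with 1970 CPM over 10 microglia and macrophage markers, against 102.6 to 270.6 CPM in antagomir and 134.8 and 237.8 CPM in the other vehicle libraries. Antagomir replicate 1 had the highest neuroblast sum, 2142 CPM, against 897.5 and 991.4 CPM in the other antagomir and 546.3 to 1372 CPM in the vehicle libraries.

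The genes lie side by side on chromosome 8 (GRCm38, plus strand), in the order Mt4, Mt3, Mt2, Mt1. Mt3 (ENSMUSG00000031760.9) spans 94152607 to 94154146, Mt2 (ENSMUSG00000031762.7) 94172664 to 94173568 and Mt1 (ENSMUSG00000031765.8) 94179082 to 94180327. Mt2 and Mt1 are separated by 5513 bases and Mt3 and Mt2 by 18517 bases. The main transcript of each has 3 exons. Their coding sequences, from the GENCODE M21 transcripts, are shown because they let reads tell the members apart, with the codons for cysteine in capitals:

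Mt1: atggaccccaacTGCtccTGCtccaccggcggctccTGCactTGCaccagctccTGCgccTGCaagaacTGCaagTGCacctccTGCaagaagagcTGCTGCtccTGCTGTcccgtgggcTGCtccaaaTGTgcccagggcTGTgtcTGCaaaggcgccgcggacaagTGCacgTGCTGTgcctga

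Mt2: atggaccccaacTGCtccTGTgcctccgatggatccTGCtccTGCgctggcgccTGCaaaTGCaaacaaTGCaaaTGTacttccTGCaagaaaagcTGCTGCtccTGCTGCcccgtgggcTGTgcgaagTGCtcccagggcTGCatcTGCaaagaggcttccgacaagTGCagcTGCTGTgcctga

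Mt3: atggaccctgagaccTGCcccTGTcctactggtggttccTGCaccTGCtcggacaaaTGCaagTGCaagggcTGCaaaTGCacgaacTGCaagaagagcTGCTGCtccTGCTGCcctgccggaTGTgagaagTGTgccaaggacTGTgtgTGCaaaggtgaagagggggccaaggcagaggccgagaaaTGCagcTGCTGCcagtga

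Each coding sequence has 20 cysteine codons, of 61 codons in Mt1 and Mt2 and of 68 in Mt3. Mt1 and Mt2 were identical at 79.6% of 186 aligned bases. Mt3 matched Mt1 at 65.2% and Mt2 at 67.6% of 207 aligned positions, 21 of them gaps that fall where Mt3 is longer. No stretch of 31 bases was shared between transcripts of any pair of the 3 genes. With other genes of the annotation Mt1 and Mt3 shared none, and Mt2 shared 3 of 573 such stretches (0.52%), with Pip5k1a.

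Metal response elements are the sites through which the zinc sensor Mtf1 switches on Mt1 and Mt2. The 250 bases upstream of each RefSeq start (GRCm38.p6) are shown, plus strand, because the 3 genes varied together. Matches to the core of that element, searched as TGCACNC and TGCGCNC on both strands, are in capitals. The windows are chr8:94178839-94179088 for Mt1, chr8:94172368-94172617 for Mt2 and chr8:94152357-94152606 for Mt3.

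Mt1: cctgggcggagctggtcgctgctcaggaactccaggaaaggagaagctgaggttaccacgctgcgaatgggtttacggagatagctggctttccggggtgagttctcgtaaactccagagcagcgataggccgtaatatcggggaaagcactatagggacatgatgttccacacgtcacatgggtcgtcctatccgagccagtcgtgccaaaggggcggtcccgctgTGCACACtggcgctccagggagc

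Mt2: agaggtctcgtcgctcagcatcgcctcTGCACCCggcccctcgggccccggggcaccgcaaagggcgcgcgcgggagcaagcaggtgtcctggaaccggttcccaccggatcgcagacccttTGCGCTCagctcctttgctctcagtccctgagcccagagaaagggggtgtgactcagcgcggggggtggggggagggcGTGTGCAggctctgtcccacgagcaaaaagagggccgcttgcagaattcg

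Mt3: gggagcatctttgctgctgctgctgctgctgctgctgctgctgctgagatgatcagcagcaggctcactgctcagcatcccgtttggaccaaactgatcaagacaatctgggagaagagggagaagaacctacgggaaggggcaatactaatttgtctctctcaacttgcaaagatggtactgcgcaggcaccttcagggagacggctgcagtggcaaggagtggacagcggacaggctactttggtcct

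Upstream of the start these windows held 1 match in Mt1, 3 in Mt2 and 0 in Mt3. With 50 bases after the start included, Mt1 had 3 matches, Mt2 had 4 and Mt3 had 1. The other 2 of Mt1 lie in the 30 bases at chr8:94179089-94179118, within the annotated first exon: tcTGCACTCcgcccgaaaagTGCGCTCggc. Of 32851 promoter windows of 300 bases in the RefSeq table, 25.7% held at least 1 match, 1.97% at least 3 and 0.517% at least 4. The matches describe these letters and do not show binding. Other annotated transcripts of Mt1 start at 94179211 and 94179241, beyond its window of 300 bases, which ends at 94179138. Bases just before those starts were not searched, and Mt2 and Mt3 also have transcripts that start beyond their windows. The counts therefore hold for these windows alone and do not rank the genes by their elements. Which of the annotated starts these cells used was not tested, so the bases shown may not be the promoter in use.

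The microRNA blocked by the antagomir, mmu-miR-204-5p, reads as follows, with its seed (bases 2 to 8) in capitals:

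mmu-miR-204-5p: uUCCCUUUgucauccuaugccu

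No match to this seed (7mer-m8, or 7mer-A1 with an A opposite base 1) was found in the 3′ untranslated regions of the main transcripts, which are 134, 141 and 136 bases long in Mt1, Mt2 and Mt3, nor elsewhere in their annotated transcripts. Among the last 134 to 141 bases of all protein-coding transcripts at least that long, 2.45 to 2.56% held a match.

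Mt1 was the most abundant member. Its level in TPM, a relative abundance that corrects for transcript length, was 3114, 3854 and 3722 TPM in antagomir replicates 1, 2 and 3, against 4133, 4629 and 5195 TPM in vehicle replicates 1, 2 and 3. All antagomir libraries lay below all vehicle libraries. The means were 3563 ± 395 TPM with antagomir and 4652 ± 531 TPM with vehicle (SD, n = 3 each). In bulk libraries such as these, fewer cells of a type and less RNA per cell cannot be told apart. Mt1 ranked 18th to 23rd by TPM among all genes within an antagomir library and 16th to 19th within a vehicle library.

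Mt2, the partner of Mt1 in metal and stress responses, was the least abundant of the 3. It had 886, 1128 and 1013 TPM in antagomir replicates 1, 2 and 3, against 1125, 1235 and 1400.3 TPM in vehicle replicates 1, 2 and 3. On this scale the groups touched, since antagomir replicate 2 was marginally above vehicle replicate 1. The means were 1009.0 ± 121 TPM with antagomir and 1254 ± 138 TPM with vehicle (SD, n = 3 each).

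Mt3, the brain member, stood between them. Its level was 1989, 2506 and 2390 TPM in antagomir replicates 1, 2 and 3, against 2628, 3102 and 3347 TPM in vehicle replicates 1, 2 and 3. The groups did not overlap. The means were 2295 ± 272 TPM with antagomir and 3026 ± 365 TPM with vehicle (SD, n = 3 each). The order Mt1 above Mt3 above Mt2 held in all 6 libraries, with gaps far wider than the spread within a group.

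**Figure D1:**
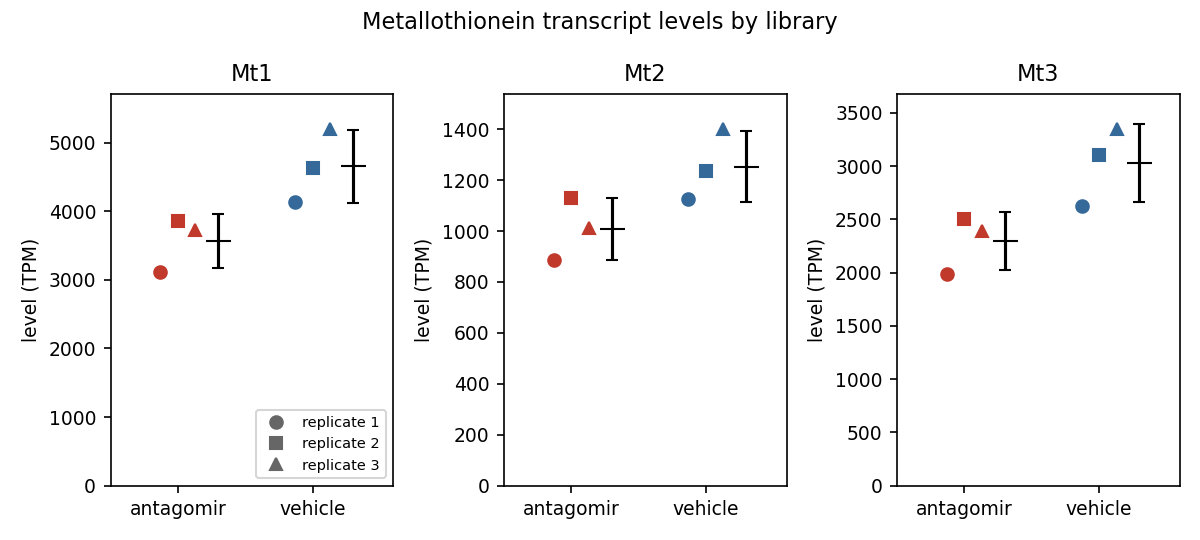
Level in TPM (vertical axes, from 0) of Mt1, Mt2 and Mt3 in each of the 3 antagomir and 3 vehicle libraries, with marker shape giving the replicate number and the black bar the mean ± SD of n = 3. Antagomir libraries lie below vehicle libraries for Mt1 and Mt3, while for Mt2 antagomir replicate 2 (1128 TPM) is just above vehicle replicate 1 (1125 TPM).

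Mt4, the family member of stratified squamous epithelia, had 0 estimated counts in all 6 libraries. With 3 counts taken as the limit of detection (counting error only), levels under 0.153 to 0.203 CPM, depending on the library, could not have been seen.

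Nearly all of the signal of Mt1 and Mt3 was assigned to 1 transcript each. Mt1-201 held 97.3 to 99.4% of Mt1 TPM in antagomir and 98.5 to 99.5% in vehicle libraries, and Mt3-201 held 95.2 to 96.4% of Mt3 TPM in antagomir and 93.6 to 96.5% in vehicle libraries. The intron-retaining Mt1-202 held 0.385 to 1.65% in antagomir and 0.372 to 1.17% in vehicle libraries, with its lowest share in replicate 1 of each group. Mt2 was divided between Mt2-201 and Mt2-202, which starts within the first exon. Mt2-202 took 31.8 ± 4.09% of Mt2 TPM with antagomir and 30.3 ± 3.96% with vehicle (SD, n = 3 each), a difference smaller than the spread. These shares are a model's division of reads among overlapping transcripts.

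Setting antagomir against vehicle asks how the sorted cells' transcripts differ after the antagomir, through blocking miR-204 or through the injected oligonucleotide itself. In CPM, the scale of the test, Mt1 had 714, 892 and 862 CPM in antagomir replicates 1 to 3 and 996, 1103 and 1281 CPM in vehicle replicates 1 to 3. The highest antagomir library was below the lowest vehicle library. Its log2 fold change, antagomir over vehicle, was -0.45 (SE 0.153, 95% interval -0.81 to -0.10), with an unadjusted p of 0.0177 and a Benjamini-Hochberg adjusted p of 0.949 by the quasi-likelihood test of edgeR.

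Mt2 had 163, 199 and 187 CPM in antagomir replicates 1 to 3 and 221, 232 and 272 CPM in vehicle replicates 1 to 3. These groups did not overlap, unlike in TPM. The log2 fold change was -0.40 (SE 0.146, 95% interval -0.74 to -0.064, edgeR unadjusted p = 0.0251, adjusted p = 0.949). Mt3 had 435, 540 and 520 CPM in antagomir replicates 1 to 3 and 603, 693 and 776 CPM in vehicle replicates 1 to 3. Its groups did not overlap either, and the log2 fold change was -0.47 (SE 0.152, 95% interval -0.82 to -0.12, edgeR unadjusted p = 0.0143, adjusted p = 0.949).

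Over the whole table edgeR called 0 of 15012 genes (0%), and the smallest adjusted p was 0.949. All 3 members had negative fold changes, as did 50.9% of all genes tested. All 3 lay under an unadjusted p of 0.05 on the lower side, where 1.93% of the genes tested lay, and in all 3 the groups did not overlap in CPM, with antagomir lower, as in 5.45% of the genes tested. In either direction 616 genes had an unadjusted p below 0.05, and DESeq2 called 1 gene, which is not a metallothionein. The members' median log2 fold change was -0.45, beside -0.0062 over all genes tested. The 3 genes vary together and are neighbours, so they are not independent observations. They were also chosen with earlier results of these data known, so the shares above are no test of the members as a set. In tests on simulated counts with the spread of these libraries, 1 of 50 genes changed 1.5-fold and 6 of 50 changed 2-fold were called. Those genes were not matched to the members, whose gene-wise biological coefficient of variation was 16.2 to 16.7%, against a common value of 36.2%.

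Leaving out single libraries kept the direction in each member. Without vehicle replicate 3, which had the highest level of all 3 genes, the fold changes were -0.34, -0.30 and -0.37 for Mt1, Mt2 and Mt3, and the edgeR unadjusted p-values were 0.0963, 0.114 and 0.0757. Without antagomir replicate 1, the lowest library, they were -0.36, -0.33 and -0.39, and the unadjusted p of Mt2 was 0.0601 (edgeR). Without antagomir replicate 3 that of Mt2 was 0.0633 (edgeR). Without vehicle replicate 1, the library rich in microglia transcripts, they were -0.53, -0.46 and -0.55.

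**Figure D2:**
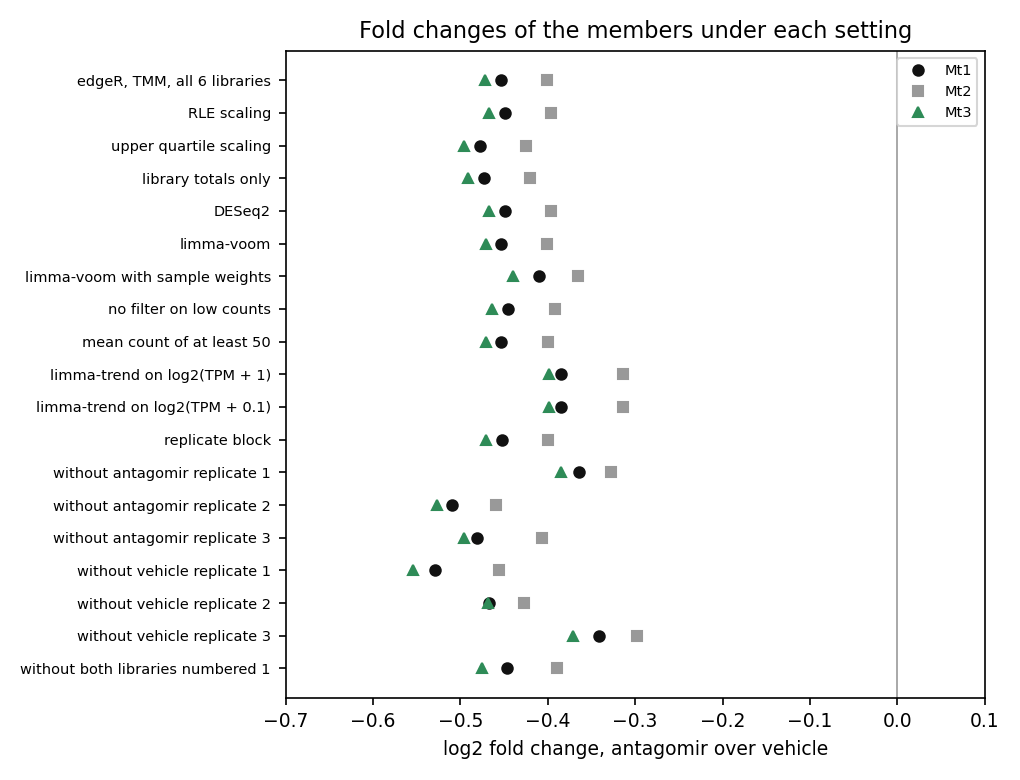
Log2 fold change (horizontal axis, antagomir over vehicle) of Mt1, Mt2 and Mt3 under each scaling, test, filter and set of libraries (rows). All points lie below 0, from -0.55 for Mt3 without vehicle replicate 1 to -0.30 for Mt2 without vehicle replicate 3.

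The proportions of the family barely differed between libraries. Summed over the 3 genes, the level was 5988, 7489 and 7124 TPM in antagomir replicates 1 to 3 and 7887, 8966 and 9942 TPM in vehicle replicates 1 to 3. The mean was 6867 ± 783 TPM with antagomir and 8932 ± 1028 TPM with vehicle (SD, n = 3 each), 23.1% lower with antagomir. Of that sum Mt1 made up 51.5 to 52.2% in antagomir and 51.6 to 52.4% in vehicle libraries, Mt3 33.2 to 33.5% in antagomir and 33.3 to 34.6% in vehicle libraries, and Mt2 14.2 to 15.1% in antagomir and 13.8 to 14.3% in vehicle libraries.

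The ratio of Mt3 to Mt1 in TPM was 0.639, 0.650 and 0.642 in antagomir replicates 1 to 3 and 0.636, 0.670 and 0.644 in vehicle replicates 1 to 3. These ranges overlapped, with a log2 difference of -0.014 (exact two-sided permutation p = 0.8). The ratio of Mt1 to Mt2 averaged 3.54 ± 0.13 with antagomir and 3.71 ± 0.0377 with vehicle (SD, n = 3 each), a log2 difference of -0.070 (exact two-sided permutation p = 0.2). The ratio of Mt3 to Mt2 averaged 2.28 ± 0.0737 with antagomir and 2.41 ± 0.0900 with vehicle (SD, n = 3 each), a log2 difference of -0.084 (exact two-sided permutation p = 0.2). Adjusted over the 3 ratios these p-values were 0.8, 0.3 and 0.3, and 3 libraries against 3 cannot give a p below 0.1.

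Across the 6 libraries the 3 genes kept the same order of libraries. Antagomir replicate 1 was lowest for every member and vehicle replicate 3 highest. For log2 CPM Pearson's r was 0.995 between Mt1 and Mt2, 0.997 between Mt1 and Mt3 and 0.989 between Mt2 and Mt3, and Spearman's rho was 1.0 for each pair (n = 6, exact permutation p = 0.00278 for each, the smallest that 720 pairings can give, and 0.00278 adjusted over the 3 pairs). Without antagomir replicate 1 and vehicle replicate 3, the libraries farthest from the median, r was 0.975, 0.997 and 0.961. The pooled values include the difference between the groups. Within the groups, Mt1 deviated from its group mean of log2 CPM by -0.20, 0.12 and 0.075 in antagomir replicates 1 to 3 and by -0.17, -0.023 and 0.19 in vehicle replicates 1 to 3. The deviations of Mt2 were -0.16, 0.13 and 0.034 with antagomir and -0.12, -0.052 and 0.18 with vehicle, and those of Mt3 were -0.19, 0.12 and 0.068 with antagomir and -0.19, 0.013 and 0.18 with vehicle. The members thus also deviated together within each group, apart from the values near 0 in vehicle replicate 2.

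The other tested genes around the cluster had log2 fold changes from -0.22 to 0.27. The lowest and the highest of these came with wide 95% intervals (-2.06 to 1.62 and -0.67 to 1.21), which held all 3 members' fold changes. Bbs2, a cilium gene before Mt4, had 68.1 ± 18.3 CPM with antagomir and 75.9 ± 24.2 CPM with vehicle (SD, n = 3 each), a log2 fold change of -0.16. Nup93, a nuclear pore gene after Mt1, had 37.7 ± 3.83 CPM with antagomir and 34.6 ± 9.70 CPM with vehicle (SD, n = 3 each), a log2 fold change of 0.12. The abundant gene Gnao1 had a log2 fold change of 0.00049. Of 10 tested genes of the list of neighbours, which includes the 3 members, the members alone lay under an unadjusted p of 0.05 and alone had groups without overlap. The 95% interval of Gnao1 (-0.30 to 0.30) held none of the members' fold changes, while that of Nup93 (-0.44 to 0.69) held that of Mt2 and that of Bbs2 (-0.80 to 0.49) held all 3. The differences between neighbours and members were not tested.

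**Figure D3:**
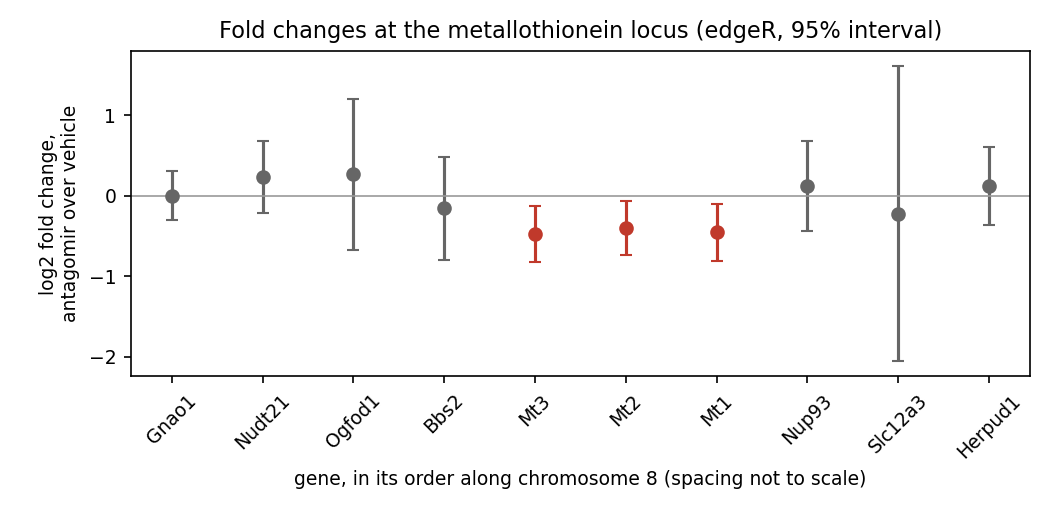
Log2 fold change with its 95% interval (vertical axis, antagomir over vehicle, edgeR) for the listed genes around the cluster that were tested, in chromosomal order but not to scale. Mt3, Mt2 and Mt1 (red) lie at -0.47, -0.40 and -0.45 and the other genes (grey) between -0.22 and 0.27.

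None of the 11 listed regulators of metallothionein transcription passed the test, as none did over the whole table. Of them 0 lay under an unadjusted p of 0.05 by edgeR, against 616 of all 15012 genes tested. Their median log2 fold change was 0.0056 (7 higher and 4 lower), beside -0.0062 over all genes tested. The median was -0.17 without antagomir replicate 3 and -0.070 without vehicle replicate 3. Mtf1, the zinc-sensing activator, had 44.3, 43.5 and 62.7 CPM in antagomir replicates 1 to 3 and 46.1, 52.5 and 50.4 CPM in vehicle replicates 1 to 3. The groups overlapped and the log2 fold change was 0.015 (95% interval -0.43 to 0.46, edgeR adjusted p = 0.994). Nr3c1, the glucocorticoid receptor gene, had 116 ± 9.11 CPM with antagomir and 115.7 ± 17.7 CPM with vehicle (SD, n = 3 each). Stat3, which relays cytokine signals, had 146.7 ± 24.3 CPM with antagomir and 164.8 ± 44.7 CPM with vehicle, and Ep300, a coactivator, had 50.6 ± 11.3 CPM with antagomir and 65.1 ± 6.71 CPM with vehicle, a log2 fold change of -0.37 (adjusted p = 0.949 by edgeR).

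Of 24 zinc transporter genes 20 were tested and 0 passed, as over the whole table, with 10 higher, 10 lower and a median log2 fold change of -0.033. Slc30a1, the zinc exporter of the plasma membrane and itself a known target of Mtf1, had 27.5, 30.1 and 37.1 CPM in antagomir replicates 1 to 3 and 25.5, 30.9 and 29.6 CPM in vehicle replicates 1 to 3. Its groups overlapped and its log2 fold change was 0.14 (95% interval -0.32 to 0.60), on the other side of 0 from the members. The importer gene Slc39a10 had 59.5 ± 10.9 CPM with antagomir and 40.4 ± 10.9 CPM with vehicle (SD, n = 3 each), without overlap (log2 fold change 0.56, edgeR unadjusted p = 0.0527, adjusted p = 0.949). Slc39a14, an importer of zinc, iron and manganese, had 26.5 ± 1.66 CPM with antagomir and 35.4 ± 4.72 CPM with vehicle (SD, n = 3 each), without overlap (log2 fold change -0.42, edgeR unadjusted p = 0.0551, adjusted p = 0.949). Slc30a7, which loads zinc into the secretory pathway, had 23.1 ± 3.05 CPM with antagomir and 30.9 ± 2.83 CPM with vehicle, also without overlap (log2 fold change -0.42). The importer Slc39a12 had 177 ± 12.2 CPM with antagomir and 191.8 ± 11.4 CPM with vehicle, and its groups overlapped. Slc30a4, an exporter into vesicles, had 32.2 ± 0.901 CPM with antagomir and 28.4 ± 2.81 CPM with vehicle, without overlap (log2 fold change 0.18). In all, 2 zinc transporters lay lower and 2 higher with antagomir without overlap, of 20 tested, where 5.45% of all genes tested lay lower. The share of all genes that lay higher was not counted. The synaptic vesicle transporter Slc30a3 was too low to test, with 43 of its 45 counts in antagomir replicate 1.

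**Figure D4:**
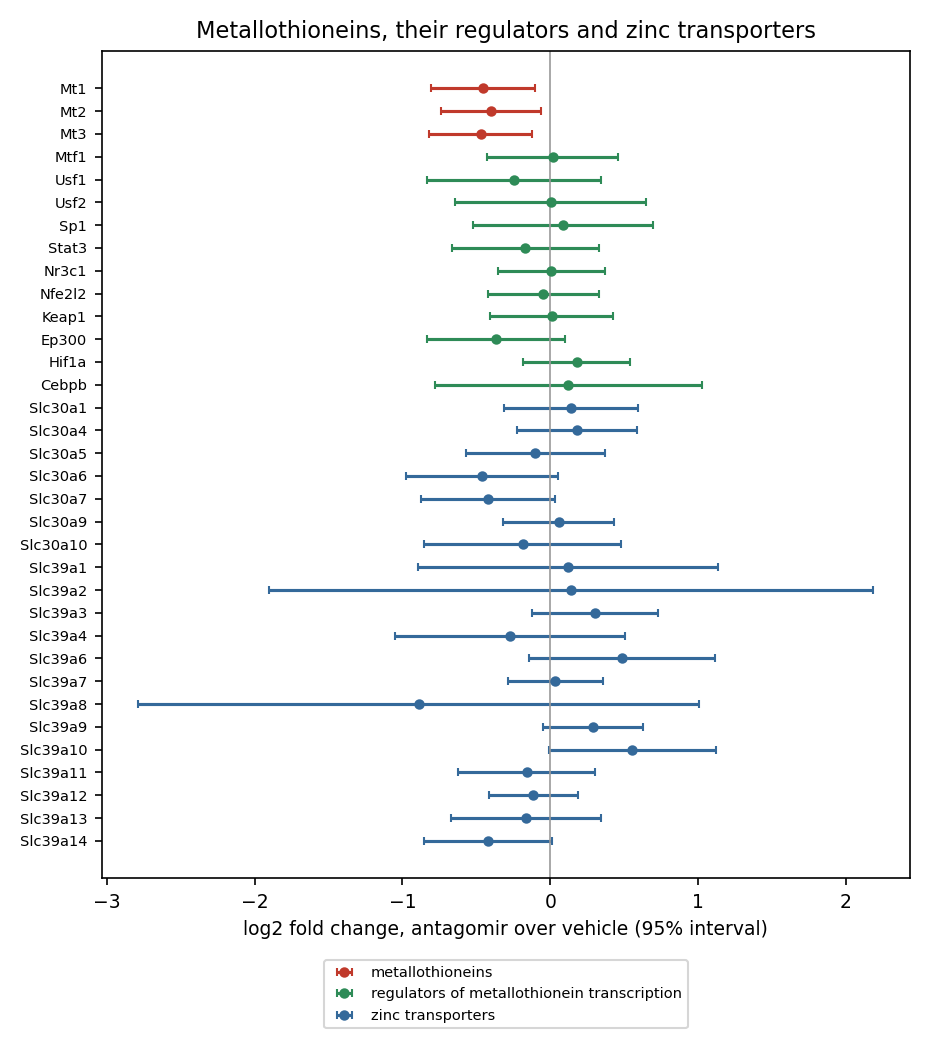
Log2 fold change with its 95% interval (horizontal axis, antagomir over vehicle, edgeR) for the 3 metallothioneins (red), 11 regulators (green) and 20 tested zinc transporters (blue). The intervals of the 3 metallothioneins lie below 0, and those of the regulators and zinc transporters include 0.

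Other metal and stress genes gave 0 calls as well, as did the whole table (0 of 15012 genes), so this count sets no list apart. The 13 copper genes had a median log2 fold change of -0.057 (5 higher, 8 lower), with the superoxide dismutase gene Sod1, a copper and zinc enzyme, at 32.2 ± 1.99 CPM with antagomir and 39.8 ± 5.54 CPM with vehicle (SD, n = 3 each). The 10 iron genes had a median of 0.027 (6 higher, 4 lower). The 12 glucocorticoid response genes had a median of 0.054 (7 higher, 5 lower), among them Klf9 at 149 ± 10.95 CPM with antagomir and 120.4 ± 13.3 CPM with vehicle (SD, n = 3 each). The 12 genes of the Nrf2 antioxidant response had a median of -0.064 (4 higher, 8 lower). Of these, 2 lay lower with antagomir without overlap and 0 lay higher, where 5.45% of all genes tested lay lower. Gclc, which makes glutathione and is also known as an Mtf1 target, was at 218 ± 38.1 CPM with antagomir and 210.2 ± 38.8 CPM with vehicle. Gclc was chosen after its values were seen. In these 4 lists 0 genes lay under an unadjusted p of 0.05 (edgeR), against 616 of all 15012 genes tested. Lists this short cannot show by a count of 0 that their genes were unchanged. Without overlap, 1 iron gene lay lower, and 1 glucocorticoid response gene lay lower and 1 higher. Among the copper genes 0 did so. No list was made of genes that respond to inflammatory signals.

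Several lists of cell type markers had median fold changes away from 0, and none of the marker genes passed the test. Over all genes tested 1.93% lay lower with antagomir at an unadjusted p under 0.05 (edgeR). Of 12 astrocyte markers 11 had negative fold changes (median -0.22, 4 under an unadjusted p of 0.05), with Slc7a10, an amino acid transporter gene, at 213 ± 25.3 CPM with antagomir and 285 ± 18.3 CPM with vehicle (SD, n = 3 each). Of 10 ependymal markers 10 were negative (median -0.16, 1 under an unadjusted p of 0.05), with the cilium gene Tekt1 at 67.0, 106.3 and 107.2 CPM in antagomir replicates 1 to 3 and 111.1, 133.7 and 153.1 CPM in vehicle replicates 1 to 3. Of 12 quiescent stem cell markers 9 were negative (median -0.20, 2 under an unadjusted p of 0.05), with Hopx, a gene of quiescent stem cells and astrocytes, at 30.8 ± 4.86 CPM with antagomir and 48.8 ± 6.82 CPM with vehicle (SD, n = 3 each). Without antagomir replicate 2 the astrocyte median was -0.098 and the stem cell median -0.023, and without antagomir replicate 3 they were -0.33 and -0.36.

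Other lists had positive medians, or medians near 0 once 1 library was left out. Of 10 oligodendrocyte markers 10 had positive fold changes (median 0.29, and 0.049 without vehicle replicate 1). Of 10 neuroblast markers 10 were positive (median 1.08, and 0.20 without antagomir replicate 1), and of 10 mature neuron markers 9 were (median 0.28, and 0.0083 without antagomir replicate 1). Of 10 microglia and macrophage markers 10 were negative (median -2.13, and 0.0017 without vehicle replicate 1). The members' fold changes were negative without each of these libraries, which is no test of the part of cell composition.

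The astrocyte sum was 11290, 7892 and 10450 CPM in antagomir replicates 1 to 3 and 11600, 10700 and 11400 CPM in vehicle replicates 1 to 3. Antagomir replicate 1, with the lowest metallothioneins, was thus close to the vehicle libraries in its astrocyte sum, and antagomir replicate 2 was the low one. The sum is weighted toward its most abundant markers. Taken singly, 5 of the 12 astrocyte markers lay lower with antagomir without overlap and 0 lay higher. Over all genes tested 5.45% lay lower in this way. Per astrocyte sum, Mt1 was 6.32, 11.3 and 8.25% in antagomir replicates 1 to 3 and 8.58, 10.3 and 11.2% in vehicle replicates 1 to 3, so that the groups overlapped. The means were 8.63 ± 2.51% with antagomir and 10.04 ± 1.35% with vehicle (SD, n = 3 each), and the log2 difference was -0.25, with -0.20 for Mt2 and -0.27 for Mt3. The ependymal sum was 1465, 2517 and 2393 CPM in antagomir replicates 1 to 3 and 2093, 2574 and 2689 CPM in vehicle replicates 1 to 3. Within each group it ordered the libraries as the members did, but the groups overlapped. Without antagomir replicate 1 the ependymal median was 0.031, while Mt1, Mt2 and Mt3 were at -0.36, -0.33 and -0.39. The 8 tested of 10 choroid plexus markers summed to 76.6, 159.9 and 141.7 CPM in antagomir replicates 1 to 3 and 102.1, 135.7 and 137.6 CPM in vehicle replicates 1 to 3. This sum too ordered the libraries within each group as the members did, and its groups overlapped. The median log2 fold change of the list was -0.21 (3 higher, 5 lower), with 0.23 without antagomir replicate 1 and 0.050 without vehicle replicate 3. Ttr, the transthyretin gene that is the chief choroid plexus marker, was too low to test, with 34 counts in all. The part of cell composition in the members' difference was not tested.

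**Figure D5:**
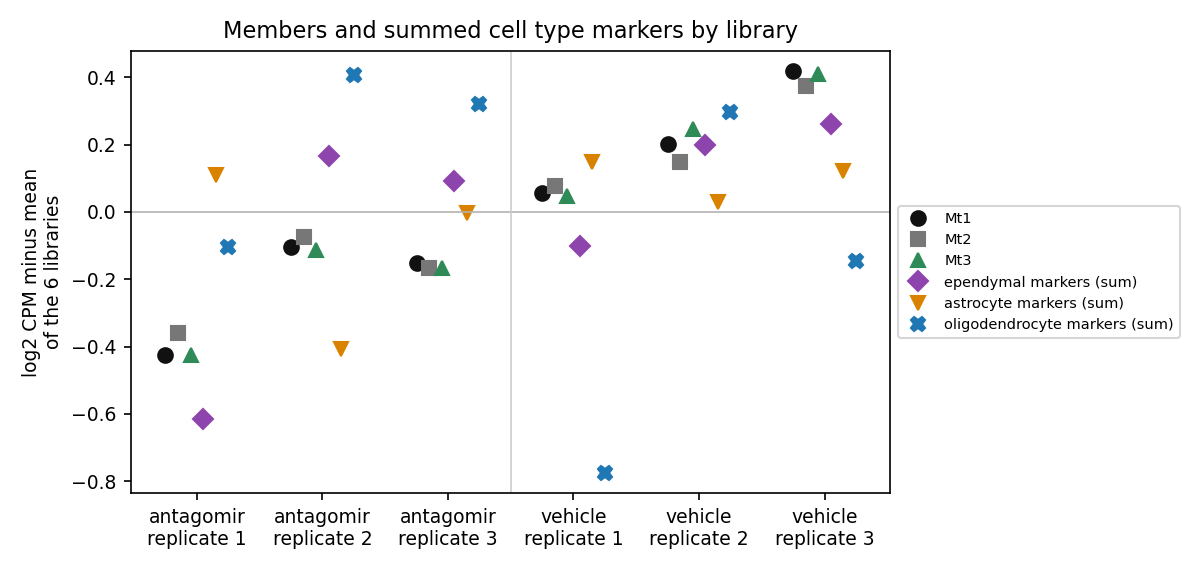
Log2 CPM of the 3 members and of summed ependymal, astrocyte and oligodendrocyte markers, each minus its mean over the 6 libraries (vertical axis), in each library (horizontal axis). The members lie close together in every library, Mt1 between -0.42 in antagomir replicate 1 and 0.42 in vehicle replicate 3, while the astrocyte and oligodendrocyte sums scatter apart from them and the ependymal sum follows their order within each group.

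The genes whose levels followed the members most closely were ranked by Pearson's r of log2 CPM over the 6 libraries, among 10519 genes with a mean of at least 10 CPM. Gpx3, a secreted glutathione peroxidase, was among the closest 5 for Mt1 (r = 0.985), Mt2 (r = 0.982) and Mt3 (r = 0.981). It had 51.2, 67.9 and 61.5 CPM in antagomir replicates 1 to 3 and 69.0, 81.7 and 102.3 CPM in vehicle replicates 1 to 3. For Mt1 the others were Chchd10, a mitochondrial protein gene (0.986), the glycosyltransferase gene Mgat5 (0.984), Gmds of GDP-fucose synthesis (0.983) and the mitochondrial ribosome gene Mrps6 (0.979). For Mt2 they were Gmds (0.994), Ginm1 (0.982), Mrps6 (0.975) and the proteasome activator gene Psme4 (0.975). For Mt3 they were Chchd10 (0.981), Hey2, a transcription factor of the Notch pathway (0.980), Mgat5 (0.976) and the histone gene Hist1h2bc (0.975). These r values are the highest of many over 6 libraries that share their depth and composition, and none of the genes passed edgeR's test (adjusted p = 0.949 for each).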

How the data were processed

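The 6 libraries (3 antagomir, 3 vehicle) were grouped by the labels' treatment group, since the labels' treatment text names the antagomir for every sample. Per the labels' protocols, cDNA was made with a SMART-Seq v4 kit and sequenced as paired-end reads. Tools named by the submitters' processing notes are kallisto and sleuth, with mm10 as build; their versions are not given in the sources used here. Per the file headers, each deposited file lists per transcript kallisto's estimated counts (expected counts), which are not normalized. Each file also gives TPM by the authors, per the file headers, a level per effective length with the same total in every library.

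Of 99567 transcripts, 98294 (98.7%) were matched by identifier to GENCODE M21 (GRCm38). The others held 0.524 to 0.586% of counts and were left out. Counts were summed per gene and rounded. No pair of libraries was as alike as sampling noise allows (chi-square per gene 23.7 to 98.6 over 15 pairs). edgeR 4.0.16 in R 4.3.3 (TMM scaling, filterByExpr at a minimum count of 10, robust quasi-likelihood fit on group alone) tested 15012 genes, with Benjamini-Hochberg adjustment and a threshold of 0.05. The median log2 fold change of all genes was -0.0062 and the common biological coefficient of variation 36.2%. SEs and intervals were derived from the F statistics. Log2 CPM used a prior count of 2. Ratios and correlations used exact permutation tests (scipy 1.17.1). The test was tried on simulated counts, in which 37 of 50 genes changed 4-fold and 43 of 50 changed 8-fold were called, with 10 false calls among 14717 genes.

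Named were the 3 members and Mt4, genes of the regulator and zinc transporter lists, up to 4 genes per other list with the smallest p, and the 5 genes most like each member. Gnao1, Bbs2, Nup93, Gclc, Slc30a3 and Ttr are named besides, chosen after their values were seen. The members and all gene lists were chosen with earlier results of these data known. Coding sequences were aligned with Biopython 1.88. Protein sequences were not used here, and 1 gene of the neighbourhood is not reported here.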

Additional observations from a re-analysis of the deposited data

How the results depend on the processing

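The fold changes of the 3 members kept their sign and stayed short of the threshold under all 11 other settings that use every library: RLE, upper quartile and no scaling factors, DESeq2 1.42.0, limma-voom (limma 3.58.1) with and without sample weights, no filter, a mean count of at least 50, limma on log2(TPM + 1) and log2(TPM + 0.1), and the replicate block. They ranged from -0.48 to -0.38 for Mt1, -0.42 to -0.31 for Mt2 and -0.50 to -0.40 for Mt3, and adjusted p-values from 0.434 to 0.948. The smallest fold changes came from TPM, where the unadjusted p of Mt2 was 0.0611 and 0.0596. Leaving out each library in turn gave -0.53 to -0.34 for Mt1, -0.46 to -0.30 for Mt2 and -0.55 to -0.37 for Mt3, with adjusted p from 0.55 to 1. Without both libraries numbered 1, a setting added after the data were seen, the values were -0.45, -0.39 and -0.48. The number of genes called was 0 in every setting, leaving out libraries included, except 1 with DESeq2 (Frmpd4).

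The Mt3 to Mt1 difference changed sign when vehicle replicate 2 was left out (range -0.030 to 0.0080), and the cause was not tested. The ranges were -0.098 to -0.046 for Mt1 to Mt2 and -0.11 to -0.055 for Mt3 to Mt2, and counts in place of TPM changed no sign.

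With the replicate block the fold changes were -0.45, -0.40 and -0.47 (adjusted p = 0.434, 0.499 and 0.434) and 0 genes were called. Same-numbered libraries had correlated deviations of 0.195, 0.0749 and 0.0275, the first being the highest of any pair across the groups. Antagomir replicate 2 correlated best with vehicle replicate 3 (0.14) and antagomir replicate 3 with vehicle replicate 2 (0.0388). Genes under the unadjusted p cutoff used above numbered 616 without the block and 1284 with it. Correlations this weak cannot decide whether the numbers pair the samples. The members had at least 2684 estimated counts in every library.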
